A study of Mus musculus with 14 samples.

Results

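Purkinje cells are the output neurons of the cerebellar cortex, and a small group of genes is expressed in them at far higher levels than in their neighbours. The levels of 10 such genes, Pcp2, Pcp4, Pcp4l1, Ppp1r17, Arhgef33, Gpr63, Fam107b, Stac, Icmt and Bcl11a, were examined in cerebella of mice with and without Astn2. The 10 were chosen by name as core Purkinje cell markers, out of 24100 genes in the deposited table, and all 10 were present there and passed the filter on low counts in each comparison. The list was drawn up with earlier results of these data known, so the calls of its genes are no independent test of the list.

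RNA was taken from cerebella at postnatal day 21, from mice wild type (WT) for Astn2 and from littermates lacking it (Astn2 knockout, KO). Every mouse, WT included, carried the bacTRAP transgene Tg(Pcp2-L10a-EGFP), in which the promoter of Pcp2 drives ribosomal protein L10a fused to EGFP. Translating ribosome affinity purification (TRAP) captures the tagged ribosomes with antibodies against GFP and recovers the messenger RNA bound to them. Part of the cleared homogenate was kept as input and stands for RNA of the whole cerebellum. There were 4 input WT libraries (1 female, 3 male), 3 input KO libraries (2 female, 1 male), 3 TRAP WT libraries (1 female, 2 male) and 4 TRAP KO libraries (2 female, 2 male). The labels do not say how many animals stand behind a library, so the p-values measure the spread between these libraries. Pcp2 is both a member of the group and the promoter gene of the tag, and counts per gene do not separate any Pcp2 sequence of the transgene from the endogenous gene.

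Purkinje cells integrate the inputs of many parallel fibres and of a climbing fibre, and they inhibit the neurons of the deep cerebellar nuclei. Their excitability and their synaptic plasticity depend on calcium, on calmodulin, and on G protein and protein kinase signalling. Several of the 10 genes act there. Pcp2 (also called L7) encodes a GoLoco-domain protein that binds G protein alpha subunits of the Gi/o class, Pcp4 (PEP-19) and its relative Pcp4l1 encode short proteins with an IQ motif, which in PEP-19 binds calmodulin, and Ppp1r17 (G-substrate) encodes a protein phosphatase inhibitor that is switched on by cGMP-dependent protein kinase. Arhgef33 encodes a predicted guanine nucleotide exchange factor for small GTPases, Gpr63 an orphan G protein-coupled receptor, Stac an SH3 and cysteine-rich domain protein of a family that regulates voltage-gated calcium channels, and Icmt the enzyme that methylates the prenylated carboxyl end of CaaX proteins. Bcl11a encodes a zinc finger transcription factor, and Fam107b belongs to the small FAM107 family.

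The sequence before the transcription start of 3 of these genes is shown first, because the Pcp2 promoter also drives the ribosome tag. Each window holds the 250 bases before a start annotated by RefSeq (assembly GRCm38.p6), written 5′ to 3′ on the strand of the gene. The capitals mark exact matches, on either strand, to AGGTCA, the core element of nuclear receptors such as RORα. Pcp2 and Pcp4, the members with the highest log2 fold changes below, both hold it. Pcp4l1, the relative of Pcp4, is shown as a member without a match. Among the members the matches did not follow the order of the fold changes. Gpr63, the lowest in WT (2.02), also has a match in a window, while Stac (3.91 in WT) and Bcl11a (3.54 in WT) have none.
Pcp2, chr8:3625548-3625797, minus strand: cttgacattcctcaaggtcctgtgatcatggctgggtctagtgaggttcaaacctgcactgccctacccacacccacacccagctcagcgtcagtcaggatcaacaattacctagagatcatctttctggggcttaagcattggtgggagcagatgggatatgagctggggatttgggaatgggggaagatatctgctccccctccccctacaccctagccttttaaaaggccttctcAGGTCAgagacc
Pcp4, chr16:96467356-96467605, plus strand: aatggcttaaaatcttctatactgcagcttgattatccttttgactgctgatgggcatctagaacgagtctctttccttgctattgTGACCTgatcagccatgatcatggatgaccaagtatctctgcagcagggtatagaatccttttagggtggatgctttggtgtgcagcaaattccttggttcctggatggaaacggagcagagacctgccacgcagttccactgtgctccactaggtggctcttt
Pcp4l1, chr1:171196269-171196518, minus strand: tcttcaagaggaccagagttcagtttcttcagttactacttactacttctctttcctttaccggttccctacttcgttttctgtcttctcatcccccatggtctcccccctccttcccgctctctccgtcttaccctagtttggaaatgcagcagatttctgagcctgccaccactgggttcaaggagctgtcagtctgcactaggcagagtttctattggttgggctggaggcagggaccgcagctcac

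In the Pcp2 window AGGTCA begins 12 bases before the start. The Pcp4 match, 164 bases before the start, lies on the opposite strand and reads TGACCT in its line. The RefSeq windows of 250 bases before to 50 bases after each start covered 9 of the 10 genes; Ppp1r17 had none. AGGTCA stood in a window of 4 of these 9 genes, Pcp2, Pcp4, Arhgef33 and Gpr63, against 18.1% of 27025 genes. In Arhgef33 it lies 76 bases before the start, also on the opposite strand. TAATTA, a homeodomain core, stood in a window of 2 genes, Pcp2 and Arhgef33 (6.12% of all genes), and the letters TATAAA, the TATA-box core, in 2, Pcp2 and Pcp4l1 (15.7%). In Pcp4l1 TATAAA begins at the start itself. In Pcp2 it lies on the opposite strand, 114 bases before the start of window 3. Both lie outside the windows printed above. CCCNNGGG, the core of sites for the early B-cell factors, was in none of the 9 (15.4%). The gene shares count a gene once if any of its annotated starts has a match, and genes with several starts have more chances: Pcp2 has 4 windows and Gpr63 has 3. CpG content differed between the members. It was 1 dinucleotide in the first window of Pcp2, 2 in that of Arhgef33, 6 in that of Pcp4, 7 in that of Gpr63 and 8 in that of Pcp4l1, against 22 for Fam107b, 23 for Bcl11a, 29 for Stac and 47 for Icmt, with a median of 7 over all 32851 windows. The count depends on the start used: window 2 of Gpr63 held 18. The Icmt window lies within exons of other annotated Icmt transcripts. A match describes letters in a window and shows no binding.

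Pcp4 and Pcp4l1 are the one pair of related genes among the 10, and their coding sequences show how far apart they are. The coding sequences are from GENCODE M21, and the capitals mark the codons of the IQ motif.
Pcp4, coding sequence: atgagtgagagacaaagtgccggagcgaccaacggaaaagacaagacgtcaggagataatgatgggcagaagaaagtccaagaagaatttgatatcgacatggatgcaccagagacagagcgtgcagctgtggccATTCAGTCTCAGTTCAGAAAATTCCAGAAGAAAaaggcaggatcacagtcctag
Pcp4l1, coding sequence: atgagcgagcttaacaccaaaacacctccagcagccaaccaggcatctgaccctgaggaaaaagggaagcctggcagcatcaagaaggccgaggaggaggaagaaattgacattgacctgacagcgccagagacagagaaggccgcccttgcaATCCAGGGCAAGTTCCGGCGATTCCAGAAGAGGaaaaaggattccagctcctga

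Pcp4 codes for 62 residues and Pcp4l1 for 68. In an alignment of the pair, 125 of 184 bases (67.9%) and 30 of 62 residues (48.4%) were identical, and the longest identical stretch was 12 bases. Both IQ motifs begin with an isoleucine codon and a glutamine codon, ATTCAG in Pcp4 and ATCCAG in Pcp4l1.

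Library totals ran from 18.8 to 54.2 M counts (M, 1e6). Levels are given as CPM, counts per M counts of the library, scaled by TMM factors over all 14 libraries. Astn2, the deleted gene, was at 117 to 146 CPM in TRAP WT and 1.06 to 2.11 CPM in TRAP KO, and every library matched its genotype label in this respect. The 10 marker genes together took 0.291% to 0.328% of all counts in the input libraries and 3.08% to 3.72% in the TRAP libraries. By counts without correction for length, Pcp4 ranked 1 to 3 among all genes of a TRAP library and Pcp2 ranked 2 to 8. Within input, Pcp4 ranked 35 to 94 and Pcp2 154 to 246.

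The first comparison asks how strongly each marker is concentrated on the tagged ribosomes. In WT all 10 genes rose from input to TRAP, by log2 fold changes of 2.02 (Gpr63) to 4.99 (Pcp2), and all 10 were called at an adjusted p of 0.05 by edgeR's quasi-likelihood test, where 37% of the 16042 genes tested were called higher. In KO, also, all 10 were called higher, by 1.65 (Gpr63) to 4.52 (Pcp2), against 36.3% of all genes. Every TRAP library lay above every input library of its genotype for each of the 10, which held for 34.4% of all genes in WT and 37.8% in KO. The median log2 fold change of the 10 was 3.63 in WT and 3.35 in KO, while the median of all genes tested was -0.09 and -0.11. Standard errors (SE) of these log2 fold changes are given with each of the 10 genes below.

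These sizes depend on the scaling. Scaling by library totals alone lowers the median of all genes by 0.82 in WT and 0.73 in KO, and the share of higher calls among all calls then is 24.2% in place of 49% in WT and 24.5% in place of 47.8% in KO. The 10 genes stayed higher and called under it, with WT values between 1.21 and 4.17 and KO values between 0.92 and 3.78. In bulk RNA, fewer cells of a type and less RNA per cell cannot be told apart, in input as in TRAP.

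**Figure D1:**
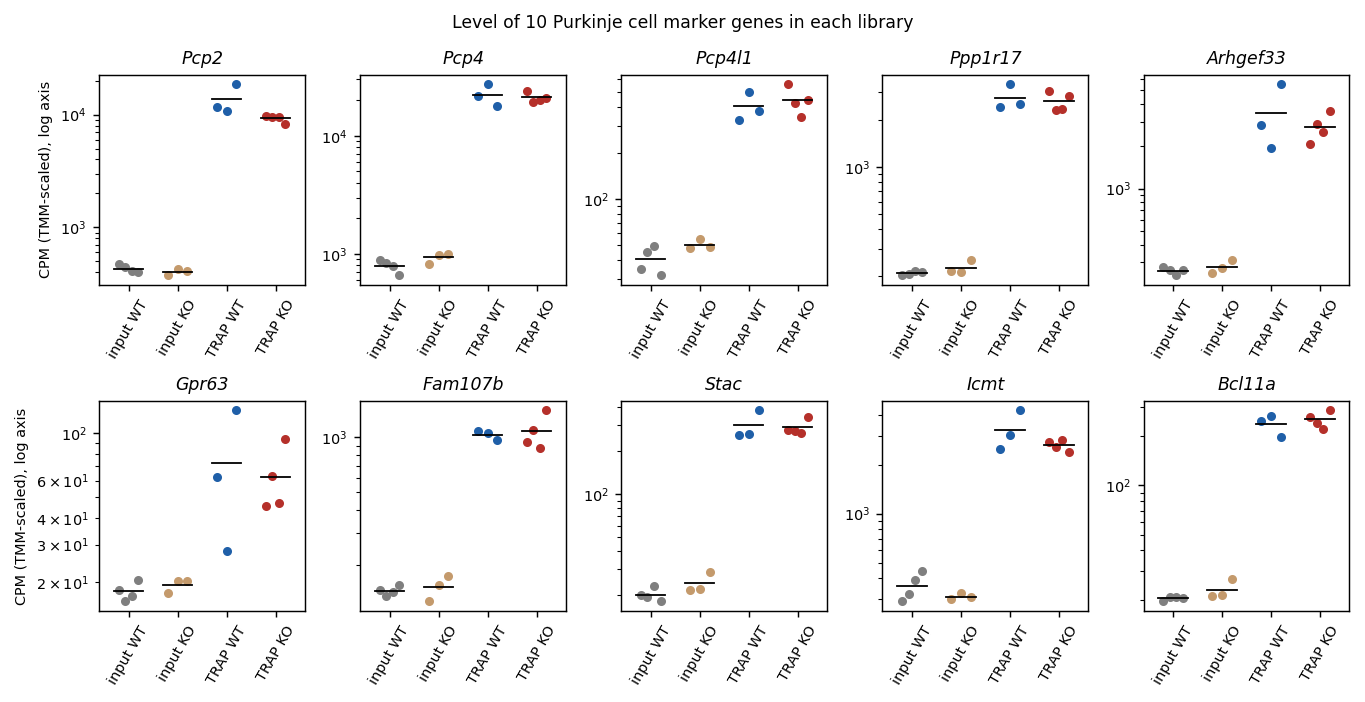
Level of each of the 10 genes in each library, in CPM scaled by TMM factors on a log axis, for input WT, input KO, TRAP WT and TRAP KO. Points are libraries and bars are group means; for every gene the TRAP points lie above the input points, with the smallest gap in Gpr63 and the widest WT spread in Gpr63 and Arhgef33.

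Pcp2 (Entrez 18545, chr8:3623369-3625547, minus strand) had the highest log2 fold change of the 10; positions of genes are those of RefSeq on GRCm38.p6. Its level was 476, 444, 409 and 399.6 CPM in the input WT libraries and 378, 426 and 410.3 CPM in the input KO libraries. In TRAP it was 11779, 10803 and 18641 CPM in WT and 9700.4, 9578, 9566 and 8174 CPM in KO. The lowest TRAP library was more than 10 times the highest input library, and 1 TRAP WT library, replicate 3, stood well above the other 2. The log2 fold change was 4.99 ± 0.18 in WT (adjusted p = 9.42e-11, 31.8-fold, rank 6 of 16042 genes) and 4.52 ± 0.20 in KO (6.03e-10, rank 21), by edgeR's quasi-likelihood test. Rpl10a, the gene of the tagged ribosomal protein, rose by 1.83 ± 0.13 in WT, from 85.2 to 303 CPM; how far transgene RNA adds to Rpl10a or Pcp2 counts was not tested. Pet100 lies on the opposite strand and shares 941 exonic bases with Pcp2, and its mean went from 24.7 CPM in input WT to 181 CPM in TRAP WT. How strand was handled in counting is not given in the sources used here, so reads from this overlap cannot be told apart.

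The G protein alpha subunits of the class that Pcp2 binds divided. Gnai1 (1.34 in WT, 1.36 in KO) and Gnao1 (1.23 and 1.35) were called higher in TRAP. Gnai3 was called lower (-0.87 and -0.89), and Gnai2 was called lower in WT only (-0.77, with -0.18 in KO, difference unadjusted p = 0.124). None of these directions turned under library totals.

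Pcp4 (Entrez 18546, chr16:96467606-96525793, plus strand) had the second highest log2 fold change and, per kilobase of transcript, the highest level of the 10 in each group. Input WT libraries held 897, 845, 785 and 662 CPM and input KO libraries 828, 972 and 1005 CPM. TRAP WT libraries held 21615, 27336 and 17668 CPM and TRAP KO libraries 24108, 19461, 19985 and 20749.8 CPM. The WT libraries of TRAP enclosed all 4 KO libraries, and TRAP WT replicate 3, the highest for Pcp2, was the lowest for Pcp4. TRAP exceeded input by a log2 fold change of 4.80 ± 0.17 in WT (adjusted p = 7.42e-11, rank 10) and 4.50 ± 0.18 in KO (rank 22). Pcp4l1 (Entrez 66425, chr1:171173264-171196268, minus strand) was measured at 35.3, 45.2, 49.3 and 32.0 CPM in input WT, 47.8, 54.5 and 48.9 CPM in input KO, 326, 499.9 and 375 CPM in TRAP WT and 560.1, 420.2, 344 and 439 CPM in TRAP KO. TRAP and input were well apart, and the genotypes overlapped in both fractions. On the log2 scale TRAP exceeded input by 3.31 ± 0.20 in WT (adjusted p = 5.84e-09) and by 3.12 ± 0.22 in KO, less than for Pcp4.

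Calm2 and Calm3, which encode calmodulin, were called higher in TRAP in both genotypes, Calm2 by 2.63 in WT and 2.42 in KO and Calm3 by 1.41 and 1.24. Of the other neuronal proteins with a calmodulin-binding IQ motif on the list, Gap43 was called lower (-2.48 in WT) and Nrgn was at -0.67 (adjusted p = 0.129), at a mean of 3.82 CPM in TRAP WT.

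Ppp1r17 (Entrez 19051, chr6:56017497-56032689, plus strand) varied little in input. It was at 204, 207, 216 and 213 CPM in input WT, the smallest relative spread of the 10 in that group, and at 216, 213 and 255 CPM in input KO. TRAP levels were 2418, 3379.6 and 2508 CPM in WT and 3064, 2311, 2346 and 2836 CPM in KO, with the genotypes overlapping. TRAP was higher by 3.73 ± 0.14 on the log2 scale in WT (adjusted p = 1.27e-10) and 3.52 ± 0.16 in KO. Prkg1, the cGMP-dependent kinase that phosphorylates the protein, was called higher in TRAP by 2.04 in WT and 1.96 in KO. The phosphatase catalytic subunits it inhibits, those of protein phosphatase 1 and 2A, did not move as a unit. Ppp2cb (1.47 in WT), Ppp1ca (0.94) and Ppp2ca (0.74) were called higher, Ppp1cc was called lower (-0.31), and Ppp1cb was at 0.04 (adjusted p = 0.792). Under library totals Ppp2ca turned to -0.08 and Ppp1ca, at 0.13, was no longer called.

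Arhgef33 (Entrez 381112, chr17:80306923-80433497, plus strand) and Gpr63 (Entrez 81006, chr4:24966054-25009238, plus strand) had the widest spread between TRAP libraries. Arhgef33 was at 277, 264, 243 and 262 CPM in input WT and 253, 272 and 312 CPM in input KO. In TRAP it was at 2851, 1932 and 5545 CPM in WT and 2069.9, 2863, 2546 and 3546 CPM in KO. WT replicate 3 was the highest and WT replicate 2 the lowest of all 7 TRAP libraries. Enrichment in TRAP was 3.72 ± 0.28 on the log2 scale in WT (adjusted p = 3.94e-08) and 3.27 ± 0.30 in KO. Gpr63 had the lowest level per kilobase of the 10 in TRAP. It was at 18.4, 16.2, 17.3 and 20.4 CPM in input WT, 17.7, 20.1 and 20.1 CPM in input KO, 62.3, 27.9 and 128 CPM in TRAP WT and 45.6, 63.3, 46.8 and 93.8 CPM in TRAP KO. The same WT libraries were its highest and its lowest, and WT replicate 2 was less than 1.5 times the highest input library. Its log2 fold change, 2.02 ± 0.37 in WT (adjusted p = 2.06e-04, rank 1288) and 1.65 ± 0.39 in KO (0.00157, rank 1787), was the lowest of the group, with the largest SE. Gpr45, the receptor closest to it on the list of relatives, was called lower in WT (-0.83), at 1.57 CPM in TRAP WT, and was at -0.45 in KO (adjusted p = 0.0653).

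Stac (Entrez 20840, chr9:111561437-111690588, minus strand) had the third highest log2 fold change of the 10 in both genotypes. It was at 19.8, 19.4, 23.0 and 18.0 CPM in input WT, 21.5, 21.8 and 28.6 CPM in input KO, 256, 263 and 380.4 CPM in TRAP WT and 277, 275, 265 and 342 CPM in TRAP KO. In each fraction 1 KO library, input replicate 3 and TRAP replicate 4, was above the rest of its group. On the log2 scale TRAP exceeded input by 3.91 ± 0.15 in WT (adjusted p = 1.55e-10, rank 79) and 3.57 ± 0.17 in KO. Its paralogue Stac2 was called lower (-1.02 in WT, -1.16 in KO), and Stac3, at 0.784 CPM in TRAP WT, was at -0.59 (adjusted p = 0.246).

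Icmt (Entrez 57295, chr4:152297214-152307126, plus strand) was at 289, 321, 389 and 446 CPM in input WT and 298, 325 and 306 CPM in input KO. In TRAP it was at 2505, 3025 and 4297 CPM in WT and 2758, 2571, 2822 and 2370.2 CPM in KO. The KO libraries of both fractions lay close together and within or near the range of the WT libraries. Enrichment in TRAP was 3.19 ± 0.17 on the log2 scale in WT (adjusted p = 1.85e-09) and 3.06 ± 0.19 in KO. The enzymes that act before Icmt on CaaX proteins divided: Fnta, the shared alpha subunit of the prenyltransferases, was called higher (1.28 in WT), as was the protease gene Rce1 (0.96). The beta subunits Fntb (-0.48) and Pggt1b (-1.33) were called lower, and the other protease gene, Zmpste24, was at -0.42 in WT (adjusted p = 0.0537) and was called lower in KO (-0.72). Under library totals Rce1 was at 0.14 in WT and was no longer called.

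Bcl11a (Entrez 14025, chr11:24076564-24173558, plus strand) was at 19.5, 20.7, 20.7 and 20.6 CPM in input WT, 21.2, 21.4 and 26.6 CPM in input KO, 247, 263 and 198 CPM in TRAP WT and 260.3, 240.5, 222 and 287 CPM in TRAP KO. The 3 highest input WT libraries were within 0.2 CPM of each other, and all input KO libraries lay above them. Between fractions the log2 fold change was 3.54 ± 0.13 in WT (adjusted p = 1.10e-10) and 3.44 ± 0.14 in KO. Its paralogue Bcl11b was also called higher, by 2.43 in WT and 2.75 in KO, at 8.46 CPM in TRAP WT. Fam107b (Entrez 66540, chr2:3704812-3782142, plus strand) was at 135 to 154 CPM in input WT, 126 to 174 CPM in input KO, 964 to 1079 CPM in TRAP WT and 871 to 1406 CPM in TRAP KO. Its TRAP WT libraries were the closest together of the 10, and its log2 fold change was 2.86 ± 0.16 in WT and 2.82 ± 0.17 in KO. Fam107a, the paralogue, was called lower (-2.84 in WT), from a mean of 498 CPM in input to 70.4 CPM in TRAP.

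**Figure D2:**
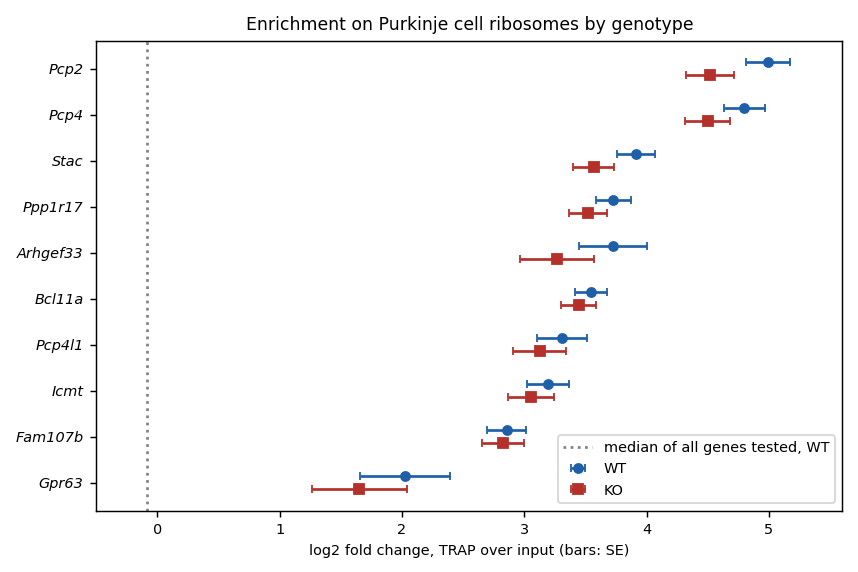
Log2 fold change of TRAP over input for each of the 10 genes in WT (circles) and KO (squares), with bars for 1 SE and a dotted line at the median of all genes tested in WT, -0.09. All points lie between 1.65 and 4.99, and the KO point of each gene lies to the left of its WT point.

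Of the 25 partner and paralogue genes set beside the members, 12 were called higher and 9 lower in WT, where all genes gave 37% and 38.5%, and 12 and 8 in KO, where all genes gave 36.3% and 39.6%. Under library totals these counts were 9 and 13 in both genotypes.

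Other genes known from Purkinje cells moved the same way. From a list of 24, 23 were called higher in each genotype (20 under library totals), and the list had a median log2 fold change of 2.55 (WT) and 2.53 (KO). Gng13 (4.77), Pvalb (4.10) and Homer3 (3.80) were the highest in WT, and Rora (1.16) and Plcb4 (0.81, adjusted p = 0.0596, below 0 under library totals) were among the 3 lowest. In WT, Pcp2 and Pcp4 exceeded all 24, while in KO Gng13 (4.73) exceeded both. Gpr63 was below the median of the 24 in both genotypes. Of the 160 genes with the highest log2 fold changes, which are 1% of those tested, 6 of the 10 members were among them in WT and 5 in KO.

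Markers of other cerebellar cells were tested beside the 10 genes to see what else the TRAP libraries held. All 10 granule cell genes, from Etv1 (-3.03 in WT) to Kcnd2 (-1.37), all 10 oligodendrocyte genes, from Opalin (-2.70) to Cnp (-1.04), and all 8 microglia genes, from P2ry12 (-2.71) to Csf1r (-1.72), were called lower in TRAP in both genotypes. Among astroglia genes 8 were lower, down to -2.66 for Slc1a2, and 1, Hopx, was higher (2.63). Of 6 interneuron genes 5 were lower, down to -2.57 for Lypd6, and Prkcd was higher (0.41, but below 0 in WT and not called in KO under library totals). The endothelial genes, from Slco1a4 (-2.92) to Cldn5 (-0.80), were lower for all 8 in WT and for 4 of 8 in KO, but for 8 of 8 in KO under library totals and 5 under DESeq2 size factors. In the choroid plexus list Clic6 was higher (3.09), and 1 gene in WT (2 genes under library totals) and 5 in KO were lower. The lowest WT estimate of that list was that of Kcnj13 (-2.25), whose WT libraries overlapped between fractions. The genotype by fraction interaction called 0 genes of any list. None of these lists was at 0 in TRAP: the granule cell genes summed to 1049.8 to 1614 CPM in TRAP WT against 5819 to 5924 CPM in input WT, and the oligodendrocyte genes to 1095 to 1966 against 5768 to 7769 CPM. The 10 Purkinje genes summed to 43140.1 to 50705 CPM in TRAP WT, 38883 to 43792 CPM in TRAP KO, 2228 to 2381 CPM in input WT and 2206 to 2587 CPM in input KO.

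**Figure D3:**
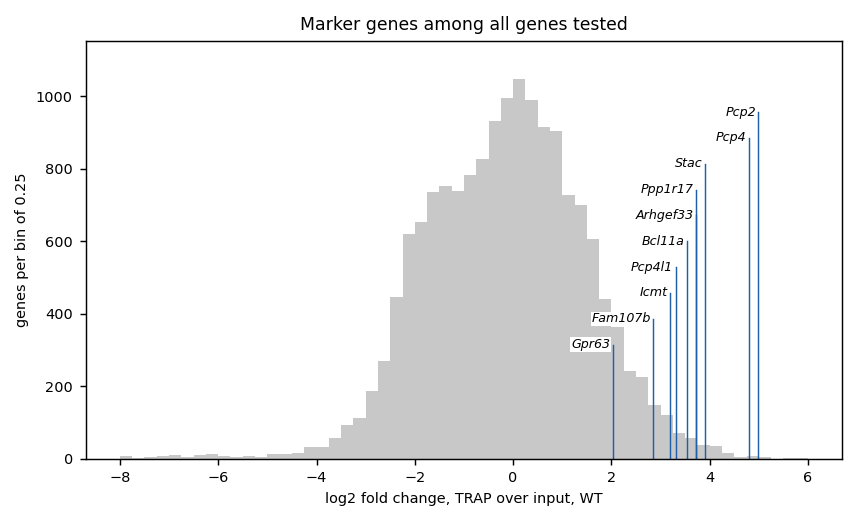
Histogram of the log2 fold change of TRAP over input in WT for all 16042 genes tested, in bins of 0.25, with a line at the value of each of the 10 genes. Values beyond -8 and 6 are counted in the end bins; the 10 genes lie in the right part of the distribution, Gpr63 at 2.02 and Pcp2 at 4.99.

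Compared per kilobase of the longest GENCODE M21 transcript, the levels of the 10 genes spanned about the same order in each group. In TRAP WT, Pcp4 was at 34643 ± 7584 CPM per kb (SD, n = 3), Pcp2 at 8556 ± 2659.7 and Ppp1r17 at 1576 ± 302, followed by Arhgef33 (1056 ± 576), Icmt (662 ± 186), Fam107b (287 ± 17.2), Pcp4l1 (254 ± 56.8), Stac (113 ± 26.5), Bcl11a (39.4 ± 5.69) and Gpr63 (30.7 ± 21.6). Libraries of neighbours in this order overlapped for Ppp1r17 with Arhgef33, Arhgef33 with Icmt, Fam107b with Pcp4l1 and Bcl11a with Gpr63, so the order within these pairs is not beyond their spread. In input WT the first 7 places were held by the same genes in the same order, from Pcp4 at 1244 ± 158 CPM per kb (SD, n = 4) to Pcp4l1 at 25.7 ± 5.18, and Bcl11a was the lowest, at 3.40 ± 0.0950, below Stac (7.58 ± 0.791) and Gpr63 (7.61 ± 0.760). The only overlaps there were Arhgef33 with Icmt and Gpr63 with Stac. Transcript choice matters: Pcp2 has transcripts from a median of 524 to a longest of 1606 bases, and its value per kb of the median transcript in TRAP WT was 26223, below that of Pcp4, 35192. By the median transcript 2 pairs changed order in TRAP WT: Arhgef33, at 5337, stood above Ppp1r17, at 1576, and Fam107b, at 1505, above Icmt, at 1137.

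The main comparison of the study asks whether loss of Astn2 changes the RNA on Purkinje cell ribosomes. Of the 10 marker genes 0 were called between KO and WT in TRAP by edgeR's quasi-likelihood test, where 0.00707% of the 14145 genes tested were called (1 gene, Astn2 itself). DESeq2's Wald test and limma with sample quality weights also called 0 of the 10. At an unadjusted p of 0.05, 1 of the 10 passed by each of the 3 tools. Of the 14145 genes, 212 (1.5%) passed by edgeR, 215 by DESeq2 and 2353 with quality weights. The member that passed by edgeR was Pcp2. Its mean was 13741 ± 4271 CPM in TRAP WT (n = 3, SD) and 9255 ± 723 CPM in TRAP KO (n = 4, SD), and the log2 fold change was -0.55 ± 0.22 (unadjusted p = 0.0350, edgeR adjusted p = 1.000, approximate 95% interval -1.16 to 0.06). This interval includes 0 although the unadjusted p is under 0.05, because it uses only the residual degrees of freedom. All 4 KO libraries, at 8174 to 9700.4 CPM, lay below all 3 WT libraries, at 10803 to 18641 CPM, as 2.69% of all genes did. The size rests on 1 library: without TRAP WT replicate 3 the log2 fold change was -0.28, and over all alternatives it ran from -0.71 to -0.28 with adjusted p between 0.123 and 1.000. Pcp2 was the only one of the 10 whose groups did not overlap. Rpl10a, which the transgene carries, was at 235 to 395 CPM in TRAP WT and 270.2 to 311 CPM in TRAP KO, with its highest value in the same WT replicate 3. Granule cell genes summed to 1049.8 to 1614 CPM in TRAP WT and 856 to 1722 CPM in TRAP KO, and interneuron genes to 124 to 212 and 223 to 249.8 CPM, so that the interneuron sums did not overlap. That separation rests on Prkcd, at 74.4 to 122 CPM in TRAP WT and 145 to 200.1 CPM in TRAP KO, and each of the other 5 interneuron genes overlapped between genotypes. Choroid plexus genes, too, did not overlap, with sums of 118 to 204 CPM in TRAP WT and 88.0 to 108 CPM in TRAP KO. Clic6, the 1 gene of that list called higher in TRAP than in input, made up most of both mean sums. It was at 88.2 to 134 CPM in TRAP WT and 81.6 to 103 CPM in TRAP KO, which overlap. Ttr, the defining gene of the list, was at 2.12 to 97.0 and 1.15 to 1.88 CPM. None of these genes was called between genotypes. The part of these in the Pcp2 values was not tested.

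For the other 9 genes the TRAP libraries of the 2 genotypes overlapped. Stac was at 0.00 (interval -0.45 to 0.45), the estimate nearest 0. Ppp1r17 was at -0.04 (-0.58 to 0.50), Pcp4 at -0.07 (-0.60 to 0.46), Fam107b at 0.08 (-0.48 to 0.63) and Bcl11a at 0.10 (-0.38 to 0.58). Each of these intervals leaves room for a change in either direction. Pcp4l1 was at 0.14 (-0.51 to 0.78), Icmt at -0.26 (-0.82 to 0.30), Arhgef33 at -0.25 (-1.19 to 0.68) and Gpr63 at -0.16 (-1.45 to 1.13). The Gpr63 and Arhgef33 intervals are the widest, and both estimates changed sign without TRAP WT replicate 3, to 0.51 and 0.21. Of the 25 partners and paralogues and of the 24 other Purkinje genes 0 were called in TRAP.

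**Figure D4:**
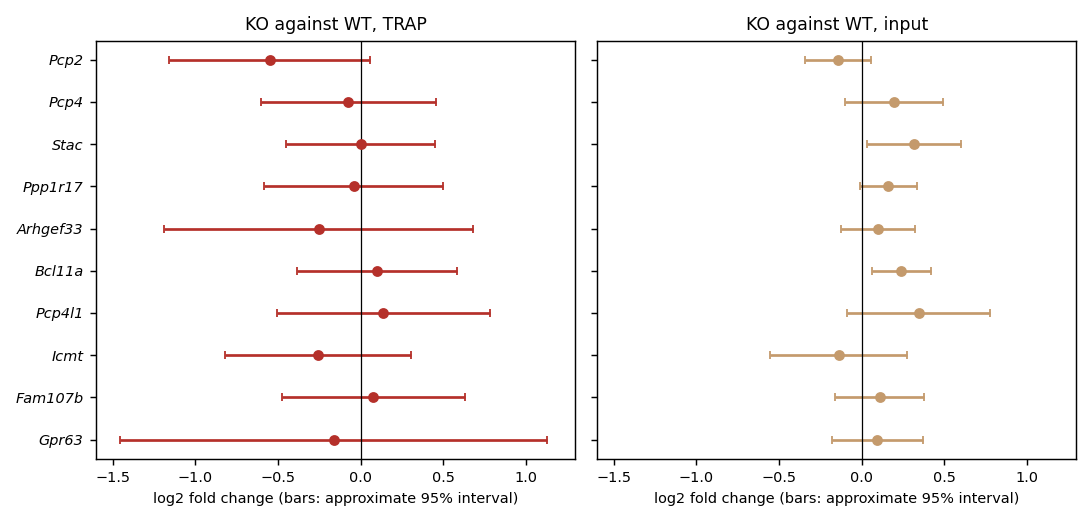
Log2 fold change of KO over WT for each of the 10 genes, in TRAP (left) and input (right), with bars for the approximate 95% interval and a line at 0. An interval can include 0 where the unadjusted p of the test is under 0.05. In TRAP all 10 intervals include 0 and that of Pcp2 ends at 0.06; in input the intervals are narrower, and those of Bcl11a and Stac lie above 0 before adjustment over all genes.

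In whole cerebellum the same question gave narrower intervals. Of the 10 genes 0 were called between KO and WT in input by edgeR, against 0.0188% of 15997 genes, and 0 by DESeq2's Wald test and by limma with quality weights. At an unadjusted p of 0.05, 2198 of the 15997 genes (13.7%) passed by edgeR, 1861 by DESeq2 and 2286 with quality weights. Of the 10 members, 3 passed by edgeR, 4 by DESeq2 and 3 with quality weights. By edgeR these were Bcl11a (0.24 ± 0.06, adjusted p = 0.218), Stac (0.32 ± 0.10, adjusted p = 0.256) and Ppp1r17 (0.16 ± 0.06, adjusted p = 0.318), each with a higher mean in KO. Bcl11a was at 20.4 ± 0.569 CPM in input WT (n = 4, SD) and 23.1 ± 3.07 CPM in input KO (n = 3, SD), and of the 10 genes it alone had all 3 KO values above all 4 WT values, as 6.1% of all genes were.

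The remaining input estimates were Pcp4l1 0.34, Pcp4 0.20, Fam107b 0.11, Arhgef33 0.10, Gpr63 0.09, Icmt -0.14 and Pcp2 -0.14, with overlapping groups. In all, 8 of 10 estimates were above 0, as were 47.8% of those of all genes, and the median was 0.13. One library carried much of this. Input KO replicate 3 was above the mean of its group for 8 of the 10 genes and the highest for 6, and without it the log2 fold change of Bcl11a was 0.15, that of Stac 0.15 and that of Pcp4 0.02, while Arhgef33, Fam107b and Icmt changed sign. Input KO replicate 1 was below its group mean for all 10 genes. Endothelial genes summed to 23.5 to 33.6 CPM in input WT and 15.3 to 23.8 CPM in input KO, and choroid plexus genes to 17.7 to 411 and 23.0 to 1178 CPM. Their part in the input values was not tested. Of the partners and of the other Purkinje genes 0 were called in input.

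Whether the enrichment itself differed between genotypes was tested as the genotype by fraction interaction. Of the 10 genes 0 were called by edgeR, as for 0% of all 16042 genes, and 0 had an unadjusted p under 0.05, against 2.68% of all genes. DESeq2 and limma with quality weights called 0 as well, with 1 of the 10 at an unadjusted p under 0.05 in each. Of all 16042 genes, 592 had such a p by DESeq2 and 1617 with quality weights. The estimate was below 0, which is a smaller enrichment in KO, for all 10 genes, for 20 of the 24 other Purkinje genes and for 53% of all genes, with a median of -0.25 over the 10. Most lists that were lower in TRAP leaned the other way, towards a smaller depletion in KO. The estimate was above 0 for 10 of 10 oligodendrocyte, 8 of 8 endothelial, 8 of 10 granule cell and 7 of 9 astroglia genes. It was above 0 for 5 of 6 interneuron and 5 of 8 microglia genes, but for 0 of 6 choroid plexus genes. Among the 10 members Pcp2 had the lowest value, -0.47 ± 0.23 (unadjusted p = 0.0582 by edgeR, interval -0.99 to 0.04), followed by Arhgef33 (-0.46 ± 0.37) and Gpr63 (-0.37 ± 0.52). Fam107b had the highest (-0.03 ± 0.22). The signs were not stable to single libraries: without TRAP WT replicate 3 Arhgef33 (0.10), Gpr63 (0.41) and Icmt (0.11) were above 0, without TRAP WT replicate 2 Pcp4l1 (0.06), and without input KO replicate 3 Fam107b (0.08) and Bcl11a (0.03). Under library totals, which raises the median interaction of all genes by 0.09, Fam107b was at 0.05.

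Each of the 7 TRAP libraries had some of the 10 genes above and some below the mean of its group. The split was uneven in some: 8 were below in TRAP KO replicate 3, 7 below in TRAP WT replicate 1 and 7 above in TRAP KO replicate 4. In input KO all 10 were below the group mean in replicate 1 and 8 were above it in replicate 3. In TRAP WT the median SD over libraries of log2(CPM + 1) was 0.32 for the 10 and 0.27 for the 6011 genes with a group mean of at least 5. In TRAP KO it was 0.18 for the 10 and 0.14 for 6047 such genes. Gpr63 had the largest SD in both (1.08 and 0.48), and the smallest was that of Fam107b in WT (0.09) and Icmt in KO (0.11). In input the medians for the 10 were lower, 0.13 in WT and 0.15 in KO, against 0.07 and 0.10 for the genes with a group mean of at least 5. The cut at 5 was not applied to the members, and in input Gpr63, Stac and Bcl11a were under it. TRAP WT replicate 3 was above its group mean by 1.06 for Gpr63, 0.83 for Arhgef33 and 0.48 for Pcp2, and below it by a deviation of -0.31 for Pcp4 and -0.24 for Bcl11a. In TRAP WT replicate 2 the deviations were -1.10 for Gpr63 and -0.69 for Arhgef33, beside 0.32 for Pcp4, 0.34 for Pcp4l1 and 0.30 for Ppp1r17. Deviations of a gene cancel out over the libraries of its group, so those of these replicates are not independent. In TRAP KO, replicate 4 was high for Gpr63 (0.64) and Arhgef33 (0.39) and low for Pcp2 (-0.18), and replicate 1 was low for Gpr63 (-0.38) and Arhgef33 (-0.39) and high for Pcp4l1 (0.37) and Pcp4 (0.20). Granule cell genes were lowest in the same TRAP KO replicate 4 for 8 of 10 genes and in TRAP WT replicate 3 for 7 of 10. Other lists were lowest there too: oligodendrocyte genes for 9 and 9 of 10, astroglia genes for 8 and 7 of 9, and interneuron genes for 5 and 5 of 6. For microglia genes it was 7 and 4 of 8, for endothelial genes 7 and 5 of 8, and for choroid plexus genes 2 and 2 of 6. The other Purkinje genes were highest there for 15 and 16 of 24. The 10 members were highest there for 5 and 5, and lowest for 2 and 3. The part of these lists in the deviations was not tested.

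**Figure D5:**
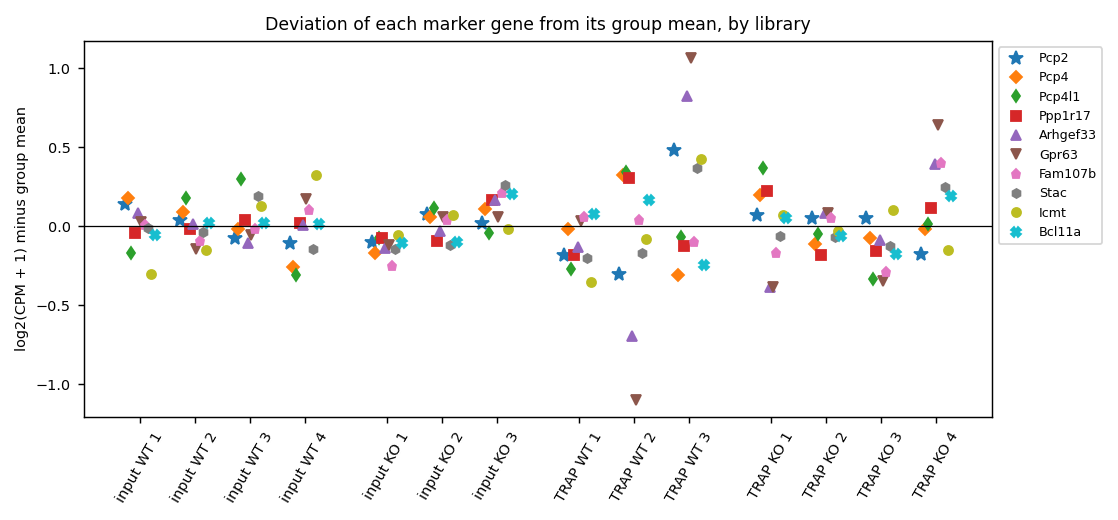
Difference of log2(CPM + 1) from the mean of its group for each of the 10 genes (symbols) in each of the 14 libraries. TRAP WT replicates 2 and 3 spread widest, from -1.10 to 1.06 for Gpr63, and all 10 genes lie below 0 in input KO replicate 1.

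Genes with the profile most like that of the markers were found as the smallest root mean square difference of centred log2(CPM + 1) over the 14 libraries, among 5936 genes outside the group with a mean of at least 5 on that scale. Since all 14 libraries fall into a TRAP and an input set, this measure is led by the difference between fractions. The profile of Pcp2 was nearest to that of Iltifb (0.287), which belongs to a pair of near-identical gene copies and is uncertain, then Cox6b2 (0.407), Itpka (0.425), Gm5083 (0.436) and Lhpp (0.444), with a median of 2.12 over all genes. Iltifb was at 22.9 ± 1.93 CPM in input WT (n = 4, SD) and 689.7 ± 415 CPM in TRAP WT (n = 3, SD). Of the other 9 markers, Pcp4 came closest to Pcp2 (0.353) and Gpr63 was the farthest (1.58). The mean profile of the 10 was nearest to those of Car8 (0.0769), Tlnrd1 (0.0986), Kcnip1 (0.105), Cep72 (0.114) and Lmo2 (0.140), where the median over all genes was 1.48. Car8 was at 1901 ± 77.1 CPM in input WT (n = 4, SD) and 22975 ± 1801 CPM in TRAP WT (n = 3, SD).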

How the data were processed

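RNA was sequenced from TRAP and input fractions of mouse cerebellum (14 libraries). The deposited values are counts per gene, whole numbers without normalization, with Entrez gene numbers. The submitters' processing notes name Salmon 0.8.2 and mm10; whether the counts are rounded estimates, and the annotation and strand setting used, are not given in the sources used here. The table holds 24100 genes, of which 2930 have no count in any library, and 24045 matched a RefSeq symbol (GRCm38.p6). Each library was 1 replicate, grouped by its labels.

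Tests were two-sided and used edgeR's quasi-likelihood fit (edgeR 4.0.16, R 4.3.3) with TMM factors, filterByExpr, sex as a covariate and Benjamini-Hochberg adjustment at 0.05 over all genes tested. TRAP against input and the interaction were fitted on all 14 libraries, genotype on the 7 libraries of each fraction. SE was derived from the log2 fold change and the F statistic, and intervals use SE with the residual degrees of freedom (4 or 9). These intervals are wider than edgeR's test implies and can include 0 where its unadjusted p is under 0.05. Alternatives were DESeq2 size factors, library totals, no filter, a mean count of at least 50, DESeq2 1.42.0, limma 3.58.1 with quality weights, no sex covariate, other sets of libraries in the fit, a replicate block, a log2 fold change of at least 1 in either direction, the list without Pcp2, and each library left out. The scripts were tested on simulated data.

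Named genes are the 10 members, their partners and paralogues, the 3 highest and 3 lowest other Purkinje genes, the highest and lowest of each cell type list, and the 5 nearest profiles; some of these are not reported here. The members and lists were chosen with earlier results of these data known.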

Additional observations from a re-analysis of the deposited data

Results flagged for a closer look

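In groups of 4 libraries, the gap of the farthest library to its nearest neighbour was divided by the range of the group, for the 10 genes in input WT and TRAP KO (20 values), and a ratio above Dixon's critical value for 4 samples marks a library that stands apart. Chance gives about 1 such value in 20. Pcp2 in TRAP KO replicate 4 had a ratio of 0.918, with 8174 CPM against 9566 to 9700.4 CPM in the other 3 libraries. Bcl11a in input WT replicate 1 had a ratio of 0.891, with 19.5 CPM against 20.6 to 20.7 CPM in the other 3. Stac in TRAP KO replicate 4 came just under that value, at 0.827, with 342 CPM.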

How the results depend on the processing

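The number of the 10 genes called was 10 in each TRAP against input comparison and 0 in each genotype comparison and in the interaction under all alternatives run, and 9 and 0 without Pcp2. Over all genes, the count of calls moved where few genes are called, and the cause was not tested. For the interaction it was 0, and 1 with DESeq2's Wald test. For KO against WT in TRAP it was 1, and 3 with DESeq2's Wald test, 61 with quality weights, 2 with all 14 libraries in one fit, and 1 to 2 with 1 library left out. For KO against WT in input it was 3, and 292 with DESeq2's Wald test, 23 without a filter, 5 with DESeq2 size factors, 8 with quality weights, 1 with the replicate block, and 1 to 158 with 1 library left out, the highest without input KO replicate 2.

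Replicate numbers are shared by the groups, but same-numbered TRAP and input libraries did not all deviate together: the correlations over genes were 0.29, 0.24 and 0.10 in WT and 0.23, 0.23 and -0.13 in KO, and TRAP WT replicate 3 and TRAP KO replicate 3 correlated best with another number. TRAP KO replicate 4 has no input library of its number, and it correlated best with input KO replicate 3 (0.35), the highest such value. With the replicate block 10 and 10 of the members were called for TRAP against input and 0 elsewhere, as without it. For TRAP against input and the interaction the block pairs by number and leaves out replicate 4 of TRAP KO and of input WT. For KO against WT it matches KO with WT libraries by number, which are of different mice. The sex covariate is not in the block fits. It therefore cannot show whether pairing by animal matters. Where 1 group was left with fewer libraries, the shared spread of the fit stood in. With 3 or 4 libraries a group, the genotype intervals in TRAP were at least 0.90 wide on the log2 scale.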
